A study of Schizosaccharomyces pombe with 6 samples.

Results

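The right end of chromosome I of fission yeast (Schizosaccharomyces pombe) was followed by 697 array probes of 42707 in all, chosen as every non-control probe with its midpoint in the outer 200 kb of the array's chromosome I map. The series measured Ssb1, the large subunit of the single-stranded DNA binding protein RPA, by chromatin immunoprecipitation on 2-colour microarrays, with each immunoprecipitate (IP) set against its own input. Of 6 arrays, 3 came from a cdc25-22 strain, which the labels call WT, and 3 from a cdc25-22 strain that also lacked rad3 (rad3∆). Each strain thus carried cdc25-22, a temperature-sensitive allele of the mitotic phosphatase gene, and was cultured at 25 °C, shifted to 36.5 °C for a 4 h arrest, returned to 25 °C and given 6 mM HU (hydroxyurea). The titles of all arrays carry the number 60 with no unit. The input of rad3∆ array 3 is labelled cdc25-23, and it was kept in its group. The labels name RNA as the extracted molecule, whereas the channels are labelled IP and input, and all values below take them as DNA of those 2 kinds.

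RPA coats single-stranded DNA, which is exposed where a replication fork has unwound the helix and synthesis has fallen behind. HU lowers the supply of deoxyribonucleotides by inhibiting ribonucleotide reductase, so forks stall. Rad3 is the ATR-family checkpoint kinase that RPA-coated DNA recruits; through the kinase Cds1 it protects stalled forks and holds back origins that have not yet fired. The regions next to fission yeast telomeres are gene-poor, hold many genes for transporters and metabolic enzymes, and are known as late-replicating chromatin in which the telomere proteins Taz1 and Rif1 keep origins from firing early. Replication origins of this yeast lie in A+T-rich stretches between genes.

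The probes ran from array position 5353006 to 5566771. The first of them averaged -0.30 in WT and -0.34 in rad3∆, and the last probe left out, at 5352671, averaged -0.09 and 0.23. They were spaced at a median of 262 bp, against 265 bp over the whole array, except for a stretch of 13.5 kb without probes before the last one. Array positions here lie 6152 bp before those of the ASM294v3 reference, an offset found from base composition, and genes were named only after that correction. In the reference, 95.6% of the unprobed stretch also occurs elsewhere in the genome (in runs of at least 25 identical bases), against 0.733% of the probed stretch. Distances below are counted from the last probe, so that the outermost 50 kb hold probes over their inner part only. Of the probes used, 45 lie beyond 200 kb, and values for the whole end include them. After 5 probes with an outlier flag were left out, 692 remained. Values are log2(IP/input) relative to the median nuclear probe of the array, so that 0 is that median and not absence of RPA.

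The deleted gene was low on the arrays labelled rad3∆, and the arrays differed in brightness. Over all 32 rad3 probes the log2 input signal averaged -0.31 ± 0.07 for WT and -4.32 ± 0.98 for rad3∆ (SD, n = 3), and 24 of the probes were not well above background on any rad3∆ array. The IP channel of rad3∆ array 2 was dim, with 623 of the 697 members well above background, against 664 to 693 on the other 5 arrays. Same-numbered arrays of the strains shared a slide and a scan, so the difference between strains is also given within each slide. The labels do not say whether replicates are separate cultures, and p-values therefore measure the spread between these arrays. For 3 arrays against 3, unpaired as in the tests below, the smallest two-sided p of an exact permutation test is 0.10. With the arrays paired by slide, the smallest p of an exact sign-flip test is 0.25.

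Stretches of at least 75% A+T over 500 bases (islands) were located on the reference as stand-ins for the places where origins lie; 14 with probes fell in the right end and 364 elsewhere. The sequences of 4 are shown because the results below turn on them: the islands with the highest RPA level in rad3∆, between SPAC3G6.07 and erv1 and between SPAC922.04 and SPAC922.09, and the islands with the largest strain difference, between yhb1 and SPAC869.01 and between pfl9 and SPAC186.02C. They were chosen after their values were seen. Each is the most A+T-rich 200 bases of its island outside protein-coding genes, on the plus strand of ASM294v3, with runs of 8 or more A or T bases in capitals (such a run reads as a run on either strand). They lie at chrI:5393051-5393250, chrI:5481921-5482120, chrI:5521051-5521250 and chrI:5528981-5529180.
SPAC3G6.07 to erv1: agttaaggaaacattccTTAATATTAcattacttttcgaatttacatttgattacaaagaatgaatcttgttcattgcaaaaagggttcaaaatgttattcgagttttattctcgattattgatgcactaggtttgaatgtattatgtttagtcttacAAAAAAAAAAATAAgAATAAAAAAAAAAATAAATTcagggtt
SPAC922.04 to SPAC922.09: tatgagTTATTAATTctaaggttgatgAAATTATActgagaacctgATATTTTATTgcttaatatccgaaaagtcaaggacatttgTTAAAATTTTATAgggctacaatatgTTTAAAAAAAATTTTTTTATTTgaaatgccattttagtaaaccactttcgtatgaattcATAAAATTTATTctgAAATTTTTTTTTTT
yhb1 to SPAC869.01: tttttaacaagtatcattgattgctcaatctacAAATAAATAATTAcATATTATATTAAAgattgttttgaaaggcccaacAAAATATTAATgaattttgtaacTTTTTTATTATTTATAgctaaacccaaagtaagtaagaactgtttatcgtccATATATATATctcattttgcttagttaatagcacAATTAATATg
pfl9 to SPAC186.02C: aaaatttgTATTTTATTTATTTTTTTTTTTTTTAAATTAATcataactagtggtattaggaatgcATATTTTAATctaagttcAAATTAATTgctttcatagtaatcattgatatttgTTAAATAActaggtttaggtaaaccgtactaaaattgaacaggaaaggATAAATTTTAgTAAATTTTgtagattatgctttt
The A+T share of these stretches was 76.0%, 78.0%, 77.5% and 80.0%, against 63.9% over the genome, which follows from how they were chosen. The runs covered 21.5% to 44.0% of their bases, against 10.3% of the genome, and 79.8% of all 200-base stretches of the genome held at least 1 run. The longest run of the 4 was 33 bases, between pfl9 and SPAC186.02C.

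Across the whole right end, RPA was below the array median in WT and above it in rad3∆. For WT arrays 1 to 3 its probes averaged -0.28, -0.13 and -0.19, and for rad3∆ arrays 1 to 3 they averaged 0.13, 0.28 and 0.24. Every rad3∆ array was above every WT array. The means were -0.20 ± 0.08 and 0.21 ± 0.08 (SD, n = 3), a difference of 0.41 (exact permutation p = 0.10, two-sided). Within slides 1, 2 and 3 it was 0.41, 0.41 and 0.42, so that the strains differed by nearly the same amount on each slide.

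The difference was larger toward the telomere. In the outermost 50 kb, WT arrays 1, 2 and 3 read -1.03, -0.62 and -0.91, and rad3∆ arrays read -0.05, 0.02 and 0.05. WT was thus far below the array median there, while all rad3∆ arrays lay close to it. The means were -0.85 ± 0.21 and 0.004 ± 0.051 (SD, n = 3), a difference of 0.86, or 0.97, 0.64 and 0.96 by slide. From 50 to 100 kb the means were -0.32 ± 0.12 and 0.24 ± 0.12, a difference of 0.55.
Farther in, WT was no longer low. From 100 to 150 kb the means were 0.21 ± 0.07 in WT and 0.44 ± 0.12 in rad3∆, and from 150 to 200 kb they were -0.02 ± 0.03 and 0.20 ± 0.06, with differences of 0.23 and 0.22. In each of these 4 bands every rad3∆ array was above every WT array (exact permutation p = 0.10, and 0.10 after Benjamini-Hochberg adjustment over the 4). The 45 probes beyond 200 kb differed by 0.10 (exact p = 0.40), and their arrays overlapped.

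**Figure D1:**
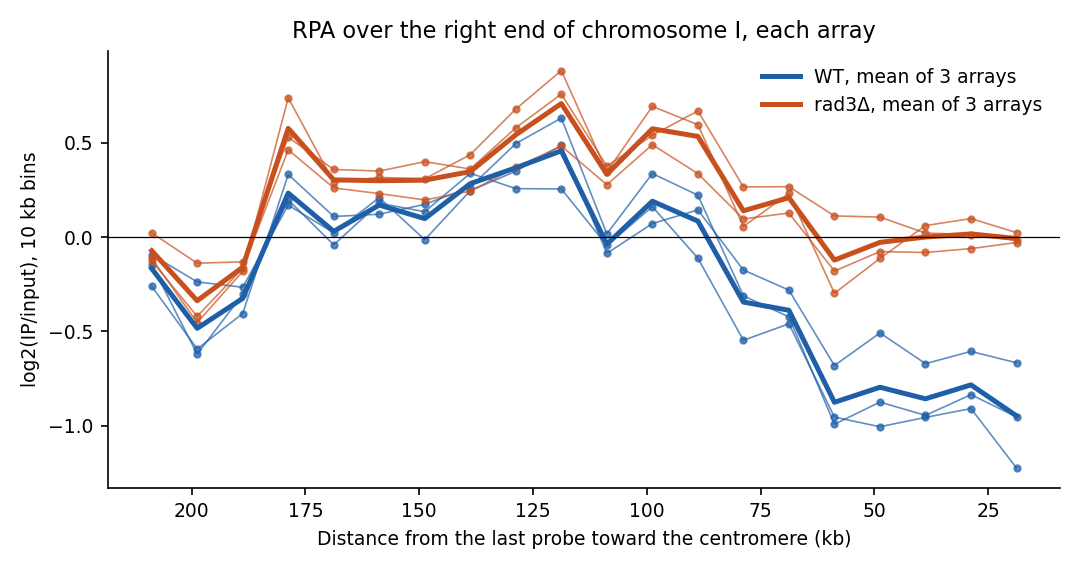
Mean log2(IP/input) of each array (thin lines with points) and of each strain (thick lines, n = 3) in 10 kb bins, by distance from the last probe; the telomere is to the right. The strains run close together on the left, and from about 64 kb outward the WT arrays lie far below 0 while the rad3∆ arrays stay closer to it.

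The strain difference lay mostly in the IP channel. In the outermost 50 kb the IP signal alone averaged -0.89 ± 0.18 for WT and 0.04 ± 0.05 for rad3∆ (SD, n = 3), a difference of 0.93. The input signal was -0.02 ± 0.04 and 0.04 ± 0.04, a difference of 0.06 (exact permutation p = 0.30). Over the whole end the input differed by 0.03 (exact p = 0.40) and the IP by 0.45. In 20 kb bins fitted with limma, 6 of the 10 bins of the end were higher in rad3∆ in the IP signal (3.25% of all bins were called in either direction). For input, 0 of 10 were called (0.162% of all bins), and their lowest adjusted p was 0.999.

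**Figure D2:**
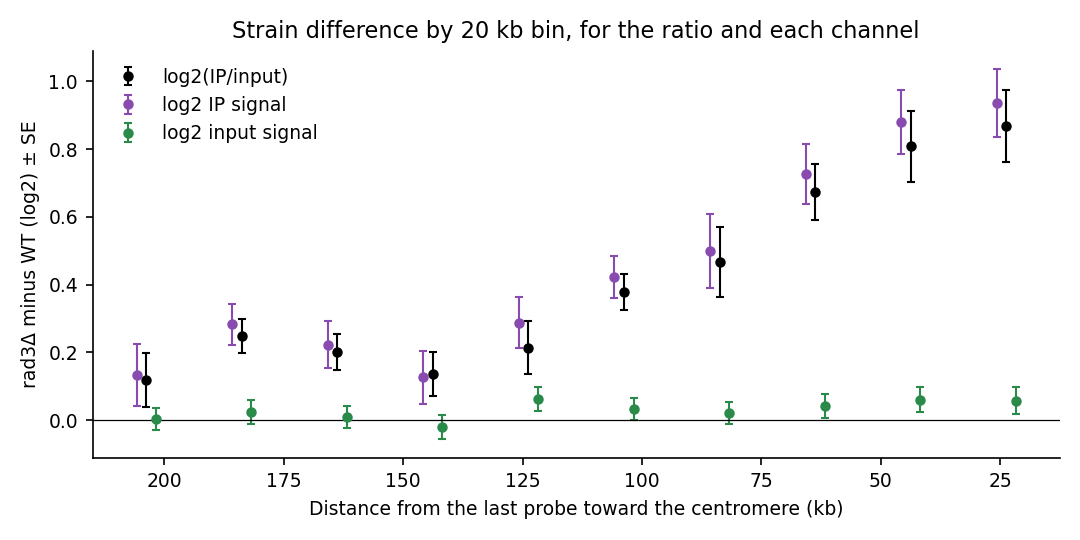
Fitted strain difference (rad3∆ minus WT, log2 ± SE, limma) in the 10 bins of 20 kb of the right end, by distance from the last probe, for the ratio and for each channel alone. The IP difference is uneven in the inner bins, between 0.13 and 0.29. From the bin at 5453001 outward it climbs from 0.42 to 0.94, and the input difference stays between -0.02 and 0.06 throughout.

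Of those 10 bins, 4 rose in rad3∆ in the ratio with limma (2.76% of 616 bins in the genome were higher), and 0 fell. The higher bins of the genome include the bin over the deleted rad3 gene, on chromosome II. The outermost bin, from 5533001 to 5553000, read -1.06, -0.63 and -0.89 in WT and -0.05, -0.0012 and 0.06 in rad3∆. It rose by 0.87 ± 0.11 (fitted difference ± SE; adjusted p = 0.0066, limma), the largest rise of the 616 bins. The bin next to it, from 5513001, read -0.98, -0.58 and -0.91 in WT and -0.08, 0.07 and -0.03 in rad3∆, and rose by 0.81 ± 0.11 (adjusted p = 0.0084), second in the genome.
The bin from 5493001 rose by 0.67 ± 0.08 (adjusted p = 0.0066), at rank 4 in the genome, and the bin from 5453001, over klf1 and its neighbours, by 0.38 ± 0.05 (adjusted p = 0.011). Between these, the bin from 5473001 differed by 0.47 ± 0.10 without passing (adjusted p = 0.059). In bins of 10 kb, 10 of 20 passed (2.78% of all). The 5 inner bins of 20 kb differed by 0.12 to 0.25, with adjusted p of 0.054 to 0.39. In 7 of the 10 bins the arrays of the strains did not overlap (9.9% of all bins with rad3∆ above WT). The bin from 5473001 passed with the slides as a replicate block (adjusted p = 0.0094). With normexp background correction 0 bins of the end passed, and the outer 3 then differed by 0.54 to 0.73 with an adjusted p of 0.14.

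At the scale of 1 kb, the right end held 199 windows of 12039. A window was called enriched at a limma adjusted p under 0.05 with a fitted value of at least 0.5, and depleted at or below -0.5. In WT, 61 windows were depleted (20.8% of all windows in the genome) and 17 enriched (18.5%). In rad3∆, 1 was depleted (21.3%) and 45 were enriched (18.8%). Of the 61 windows depleted in WT, 60 were neither depleted nor enriched in rad3∆. Over the genome this held for 509 of the 2500 windows depleted in WT (4.23% of all windows). In the right end 28 windows moved from neither call to enriched (3.92% of all windows). All 17 windows enriched in WT were enriched in rad3∆ as well, so that 0 lost the call. Over the genome most windows enriched in WT also kept it, 1789 of 2226 (14.9% of all windows), and 437 lost it (3.63% of all).

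The strain difference was positive in 190 of the 199 windows (45.3% of all windows). At an unadjusted p under 0.05, 92 were higher in rad3∆ (5.11% of all) and 0 lower (3% of all). In 91 all 3 rad3∆ arrays lay above all 3 WT arrays (6.06% of all), and in 0 below (4.63%). By band, this held for 31 of 35 windows in the outermost 50 kb, 35 of 50 from 50 to 100 kb, 13 of 50 from 100 to 150 kb and 12 of 50 from 150 to 200 kb. The shape of the profile was partly shared: fitted WT and rad3∆ values correlated at r = 0.80 over the 199 windows, which share arrays and neighbouring DNA, and at 0.25 over the 35 outermost.

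The longest depleted run in WT was the outer domain itself. It spanned 50 kb, from 5503001 to 5553000, with 48 depleted windows, a mean of -0.86 in WT and -0.04 in rad3∆. At its inner edge, the window from 5503001 had the largest strain difference of the end, 1.26 ± 0.28 (adjusted p = 0.15, limma), with WT arrays at -1.51, -0.58 and -0.26. Its WT arrays were spread widely, and it was not called.
A shorter depleted run in WT, of 11 kb from 5364001, covered fet5, a GTPase gene, and prp40, for a splicing factor of the U1 particle. It averaged -0.54 in WT and -0.39 in rad3∆, and it held the single window depleted in both strains, from 5372001 in hrp3, for a CHD-family chromatin remodeller (-0.64 ± 0.14 and -0.67 ± 0.14, fitted value ± SE). The third run, of 4 kb from 5487001 beside put4, averaged -0.56 in WT and -0.11 in rad3∆.

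**Figure D3:**
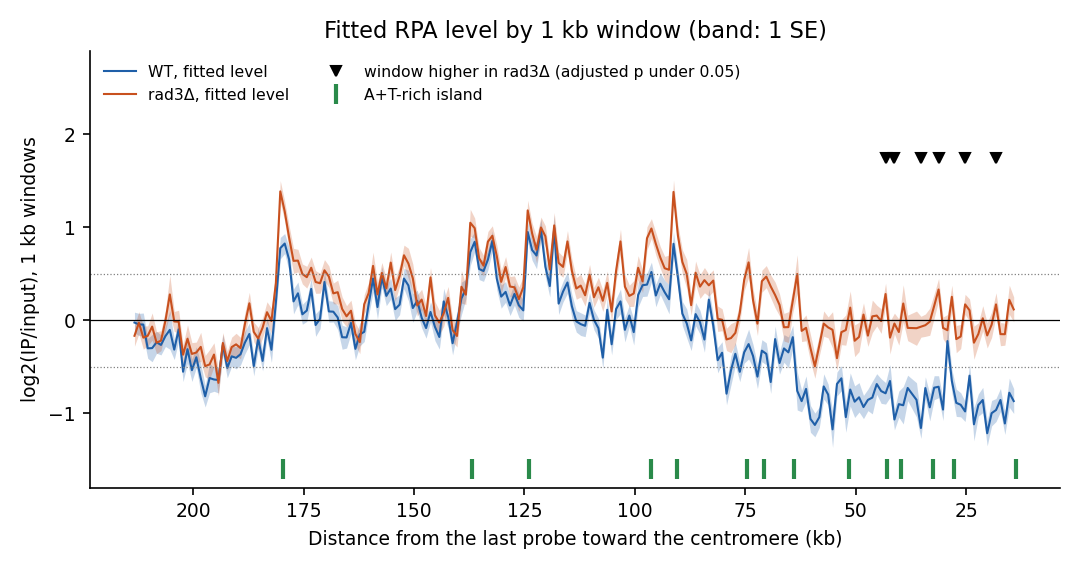
Fitted log2(IP/input) of 1 kb windows (line, band 1 SE) in WT and rad3∆, by distance from the last probe, with A+T-rich islands as green marks and the 6 called windows as triangles; dotted lines mark 0.5 and -0.5. The 17 windows enriched in WT are enriched in rad3∆ too, and 34 of the 35 outermost windows are depleted in WT and 0 in rad3∆.

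In the strain test by window, 6 windows of the end were higher in rad3∆ with limma (0.108% of all windows) and 0 were lower, and all 6 lay in the outermost 50 kb. They started at 5523001, 5525001, 5531001, 5535001, 5541001 and 5548001 and rose by 1.03 to 1.15, with adjusted p of 0.031 to 0.042. The window from 5541001, in which no protein-coding gene lies, read -0.94, -1.03 and -0.96 on the WT arrays and 0.28, 0.08 and 0.15 on the rad3∆ arrays, a rise of 1.15 ± 0.15. The window from 5548001 lay in pdc102, a pyruvate decarboxylase gene, and read -1.18, -0.70 and -1.02 against 0.21, 0.06 and 0.24.
The window from 5535001, between gdt1 and SPAC186.06 and over an LTR (the terminal repeat of a retrotransposon), rose from -0.71 to 0.33. The window from 5523001 touched SPAC186.02C, a hydroxyacid dehydrogenase gene, and rose from -0.78 to 0.28. Windows from 5525001 and 5531001 held no protein-coding gene and rose from -1.07 to -0.03 and from -1.16 to -0.07. In these 6 windows the IP signal alone differed by 1.02 to 1.26 and the input by -0.03 to 0.10. With limma on the IP signal alone, 0 windows of the end were called for the strain difference (0% of 12039 windows in the genome).

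The window calls were close to their threshold. The windows over the deleted rad3 segment, which carry no information on RPA, were among those called in the genome; when they were left out of the fit, an alternative chosen after the data were seen, 0 windows of the end passed, with adjusted p of 0.051 to 0.057 and the same differences. With the slides as a replicate block 17 windows passed, 14 of them in the outermost 50 kb. The count was 0 without WT array 2 or 3 or rad3∆ array 1 or 3, 1 without WT array 1 and 6 without rad3∆ array 2. Only array 3 of each strain has the IP in red, so without either one the fit's term for dye orientation takes up the other. Both fits without an array 3 therefore give the same strain difference, from slides 1 and 2 alone.

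Every WT run of enriched windows lay within a rad3∆ run. In WT 15 of the 17 enriched windows formed 3 runs of 16 kb in all, and in rad3∆ 41 of the 45 formed 7 runs of 45 kb. The run from 5442001 in WT was 7 kb long, lay over SPAC1039.02, a phosphatase gene, and its neighbours, and held the highest WT window of the end (0.996 ± 0.138, fitted value ± SE, and 1.02 ± 0.14 in rad3∆). It reached 11 kb in rad3∆, where SPAC1039.04, for a carboxylic acid transporter, and klf1 were also enriched.
The run from 5386001 beside erv1, a mitochondrial sulfhydryl oxidase gene, held the highest rad3∆ window. It had a fitted value of 0.78 in WT and 1.39 in rad3∆ (adjusted p of the difference = 0.23, limma). Another rad3∆ run covered 11 kb from 5467001 over gto1, an alpha-glucosidase gene, SPAC922.03 and SPAC922.04; 2 of its windows were enriched in WT, and its highest window, from 5475001, read 0.82 and 1.38 (adjusted p = 0.35). At the band boundaries, the windows from 5516001, 5466001 and 5416001 differed by 0.66, 0.42 and 0.32, and none was called.

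The A+T-rich islands followed the same gradient. All 5 islands farther than 90 kb from the last probe had mean values above 0 in both strains, from 0.38 to 0.93 in WT and from 0.73 to 1.46 in rad3∆. The island between SPAC3G6.07 and erv1 read 0.74, 0.85 and 1.19 in WT and 1.42, 1.18 and 1.79 in rad3∆, and the groups overlapped narrowly. The island between SPAC922.04 and SPAC922.09 read 0.92, 0.47 and 0.86 in WT and 1.37, 0.94 and 1.58 in rad3∆, and its arrays did not overlap.
All 9 islands within 90 kb had mean values below 0 in WT, from -0.94 to -0.17, and 7 of them were above 0 in rad3∆. In all 9, and in 10 of the 14, every rad3∆ array was above every WT array, which held for 50 of the 364 islands elsewhere (13.7%). The island between pfl9 and SPAC186.02C read -1.07, -0.75 and -0.84 in WT and 0.10, 0.17 and 0.21 in rad3∆. The island between yhb1 and SPAC869.01 read -1.14, -0.83 and -0.83 in WT and 0.35, -0.17 and -0.12 in rad3∆. The differences were 1.04 and 0.96, for which these islands were chosen.
Averaged over the 14 islands, WT was at -0.17 ± 0.15 and rad3∆ at 0.52 ± 0.15 (SD, n = 3), whereas the 364 islands elsewhere read 0.29 ± 0.07 and 0.47 ± 0.19. The islands were defined after the data were seen, as was the 90 kb boundary, and no test was made on the islands. This boundary is not a band edge. The islands between gto1 and SPAC922.03 and between SPAC922.04 and SPAC922.09 lie at 96.4 and 90.6 kb and averaged 0.73 and 0.75 in WT. With a boundary at 100 kb, the islands on the telomere side would not all be below 0 in WT.

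Over genes, 158 of the right end were measured by 2 or more probes. They comprised 66 protein-coding and 92 non-coding RNA genes. The reference lists 79 protein-coding genes from the first probe outward. The 13 without a value include SPAC750.01 and the other genes next to the telomere, ftm3 and ftm4 among them. With limma, 0 genes of the end passed for the strain difference (0% of 9617 genes). At an unadjusted p under 0.05, 75 of the 158 were higher in rad3∆ (5.76% of all) and 0 lower (2.98%), and 80 had all rad3∆ arrays above all WT arrays (6.46%). In WT 13 of the 158 were enriched (17.9%) and 43 depleted (20.2%), and in rad3∆ 37 (18.4%) and 2 (20.4%). Of the 66 protein-coding genes, 31 were higher at that level (4.18% of all protein-coding genes), 32 had arrays that did not overlap (5.64%), 0 passed when protein-coding genes were adjusted alone (0.0206%), and 64 had a positive difference, with a median of 0.29 against -0.03 over all 4860 protein-coding genes tested.

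Protein-coding genes of the outer domain were poor in RPA in WT and at the array median in rad3∆. In WT, 16 of the 66 were depleted (20.1% of all protein-coding genes) and 5 enriched (16.6%), and in rad3∆ 1 was depleted (21.1%) and 14 were enriched (16.4%). All 8 measured within 50 kb of the last probe were depleted in WT and 0 in rad3∆. Their median level was -0.78 in WT and -0.02 in rad3∆.

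The 5 measured protein-coding genes nearest the telomere are metabolic or membrane protein genes. For pdc102, which encodes an enzyme that turns pyruvate into acetaldehyde, the level was -1.22, -0.70 and -0.81 on the WT arrays and -0.27, 0.10 and 0.10 on the rad3∆ arrays. The groups did not overlap, and the fitted difference was 0.89 ± 0.17 (adjusted p = 0.15, limma). The antisense RNA gene prl107 overlaps pdc102 and shares all of its probes.
SPAC186.06, annotated as an isomerase, read -1.31, -0.83 and -0.91 in WT and -0.13, 0.06 and 0.12 in rad3∆. It had the largest difference of the protein-coding genes of the end, 1.03 ± 0.15 (adjusted p = 0.096). For gdt1, a GDT1-like membrane protein gene, the difference was 0.92 ± 0.19, for SPAC186.08C, an L-lactate dehydrogenase gene, 0.81 ± 0.17, and for SPAC186.07C, a hydroxyacid dehydrogenase gene, 0.53 ± 0.19. None of the 3 passed (adjusted p = 0.18, 0.20 and 0.44), and the arrays of SPAC186.07C overlapped.

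**Figure D4:**
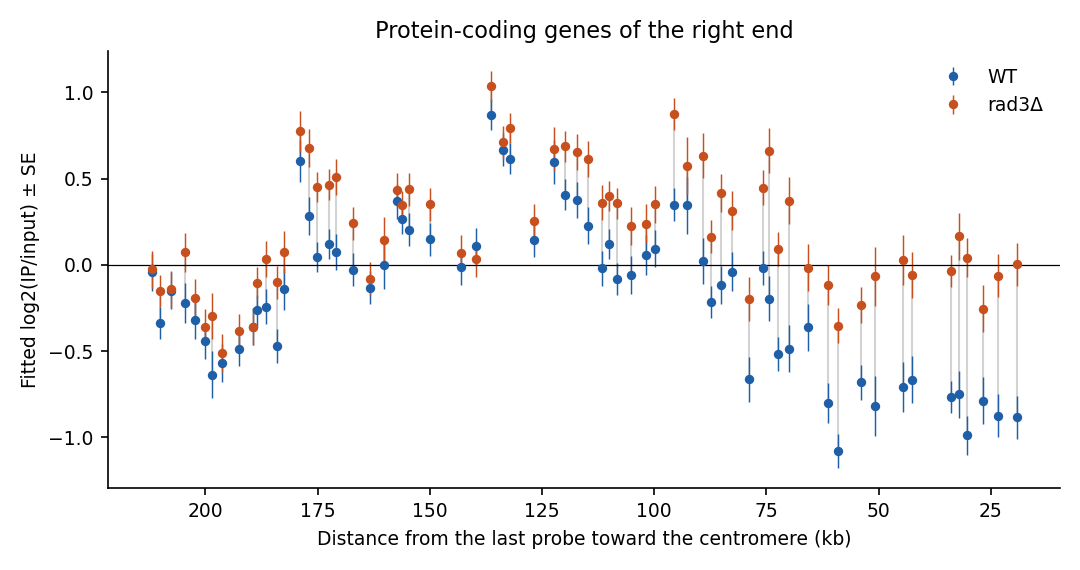
Fitted log2(IP/input) ± SE (limma) of the 66 measured protein-coding genes of the right end in WT and rad3∆, joined by a line for each gene, by distance of the gene's middle from the last probe. The gap between the strains is widest over the outermost genes, and 64 of 66 genes have the higher value in rad3∆.

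Dehydrogenase and reductase genes, listed by their product names, were few. Of 5, 3 were depleted in WT and 0 in rad3∆, against 20.1% and 21.1% of all protein-coding genes. These 3 lie in the outermost 50 kb, where all 8 measured protein-coding genes were depleted in WT and 0 in rad3∆. All 5 differences were positive, with a median of 0.53, as were 64 of the 66 protein-coding genes of the end and 41.7% of those in the genome. Besides the genes above, SPAC186.02C differed by 0.61 ± 0.18, atd2, for an aldehyde dehydrogenase, by 0.53 ± 0.15, and SPAC922.06 by 0.38 ± 0.13. The ribonucleotide reductase inhibitor gene spd1, whose product restrains the enzyme that HU also blocks, was picked up by its product name and is not in that count. It read -0.003 in WT and 0.14 in rad3∆ (difference 0.14 ± 0.19), and its difference was -0.01 without WT array 1 and -0.04 without rad3∆ array 2.

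Transporter and permease genes made up the longest of the product lists. Of 10 measured, 1 was enriched and 2 were depleted in WT, near the shares of 16.6% and 20.1% over all protein-coding genes. In rad3∆ 3 were enriched and 0 depleted, against 16.4% and 21.1%. A positive difference was found for 9 of the 10, with a median of 0.32, a share no higher than that of the end's protein-coding genes. SPAC869.03C, a urea transporter gene, read -0.85, -0.90 and -1.30 in WT and -0.36, -0.01 and -0.50 in rad3∆. Its fitted WT level was the lowest of the protein-coding genes of the end, although the WT arrays of SPAC186.06 were about as low. The arrays of SPAC869.03C did not overlap (difference 0.73 ± 0.14, adjusted p = 0.15, limma). For put4, for proline uptake, the fitted level was -0.66 in WT and -0.20 in rad3∆.
SPAC922.05C read 0.02 in WT and 0.63 in rad3∆, SPAC1039.04 0.37 and 0.65, and SPAC29B12.14C, a purine transporter gene, 0.62 and 0.80. These 3 were enriched in rad3∆, and SPAC29B12.14C also in WT. For cat1 (arginine and lysine), isp5 (amino acids), sul2 (sulfate) and SPAC1039.01 (amino acids) the differences were 0.35 ± 0.16, 0.29 ± 0.15, 0.35 ± 0.19 and 0.11 ± 0.14. The exception in sign was pgt1, for glutathione uptake, at 0.11 in WT and 0.03 in rad3∆, a difference of -0.07 ± 0.14 that was 0.05 without WT array 1. No member passed the strain test.

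Other listed genes were few. The cell surface glycoprotein gene pfl9, of the DIPSY family, was depleted in WT (-0.71) and at 0.03 in rad3∆, a difference of 0.74 ± 0.20 (adjusted p = 0.33, limma). The transcription factor gene klf1 read -0.02, 0.31 and 0.31 in WT and 0.41, 0.67 and 0.68 in rad3∆, with no overlap, and was called enriched in rad3∆ and not in WT (difference 0.39 ± 0.14, adjusted p = 0.47). No hexose transporter, iron uptake, RecQ-type helicase, wtf, tRNA or LTR gene of the lists had 2 probes here.
Among the genes with the highest WT level, SPAC29B12.11C, for a WW domain-binding protein, read 0.62, 0.75 and 1.08 in WT and 0.97, 0.82 and 1.15 in rad3∆ (difference 0.16 ± 0.13), and the groups overlapped. The others were non-coding: SPNCRNA.4454 and SPNCRNA.4455, which share their probes, SPNCRNA.4456, SPNCRNA.4457 and SPNCRNA.4435, at 0.72 to 0.89 in WT and 0.91 to 1.12 in rad3∆. With a trend on base composition removed, SPNCRNA.4454 differed by -0.02 in place of 0.20.

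Of the 10 largest differences 8 were of non-coding RNA genes, which make up 92 of the 158 measured; the median difference was 0.32 over these 92 and 0.29 over the protein-coding genes. SPNCRNA.283 read -1.14, -0.73 and -1.28 in WT and 0.13, 0.29 and 0.01 in rad3∆, the largest difference of all genes of the end (1.19 ± 0.15, adjusted p = 0.096, limma). SPNCRNA.4478 differed by 1.04 ± 0.20, prl108, an RNA antisense to hry1, by 0.94 ± 0.14, and SPNCRNA.4482, SPNCRNA.4501, SPNCRNA.282, SPNCRNA.4488 and SPNCRNA.4484 by 0.91 to 0.97. These loci are short, with 2 to 7 probes, and the arrays do not separate them from what overlaps them.
Genes that act on DNA or chromatin were looked at after their values were seen. The level of rad2, for the FEN-1 flap endonuclease, was -0.14 in WT and 0.08 in rad3∆; of chl1, for a DNA helicase, 0.12 and 0.47; of ino80, for a chromatin remodeller, -0.03 and 0.24; and of set2, for a histone methyltransferase, -0.13 and -0.08. Of 8 such genes 0 passed the strain test with limma (0% of all genes did), 1 was higher at an unadjusted p under 0.05 (4.18% of protein-coding genes), and the median difference was 0.13.

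The right end was set against the other ends of chromosomes I and II, each 200 kb long; those of chromosome III were not compared here. The strain difference was 0.41 here, 0.45 at the right end of chromosome II, 0.21 at the left end of chromosome I, 0.15 at the left end of chromosome II and -0.02 over the rest of chromosome I. The strain difference minus that of the right end of chromosome II was -0.04 (exact permutation p = 0.60, adjusted 0.60). Minus that of the left ends of chromosomes I and II it was 0.21 (exact p = 0.20) and 0.27 (exact p = 0.10), and minus the mean of these 3 ends 0.15 (exact p = 0.20), or 0.02, 0.23 and 0.19 by slide. Minus that of the rest of chromosome I it was 0.43 (exact p = 0.10), or 0.36, 0.44 and 0.50 by slide. Adjusted over the 5 comparisons, each of these 4 had an exact permutation p of 0.25.

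**Figure D5:**
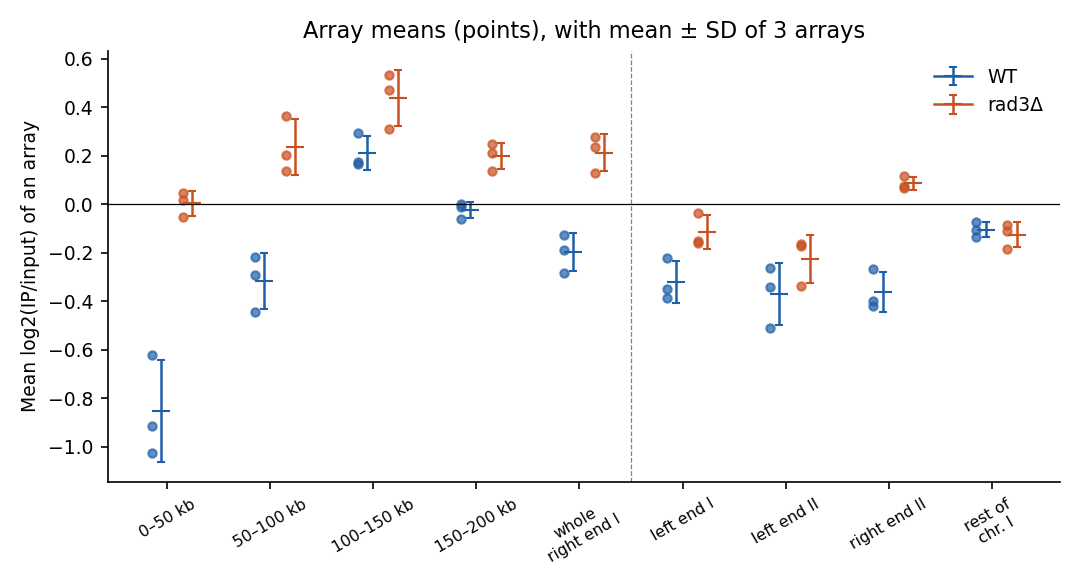
Mean log2(IP/input) of each array (points) with mean ± SD of 3 arrays (bars) for the 4 bands and the whole of the right end of chromosome I (left of the dashed line), and for the other ends of chromosomes I and II and the rest of chromosome I. The strains do not overlap in the 4 bands of the right end, at the left end of chromosome I or at the right end of chromosome II, and they overlap at the left end of chromosome II and in the rest of chromosome I.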

How the data were processed

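Processed spot intensities of both channels were deposited as Feature Extraction made them, background-subtracted and dye-normalized under protocol CGH_107_Sep09, per the file headers (version 10.7.1.1 for replicate 1 and 10.7.3.1 for the others, the latter also per the submitters' processing notes). The deposited log10 ratio of red over green was used only to check channel directions, per the file headers. The IP was green in replicates 1 and 2 and red in replicate 3, per the labels.

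From these, log2(IP/input) was centred on each array's median nuclear probe, without loess, and averaged over 1 kb windows and genes with at least 2 probes and 20 kb bins with at least 20. limma 3.58.1 in R 4.3.3 fitted strain means and dye orientation to all 6 arrays, with Benjamini-Hochberg adjustment over the genome (3 residual degrees of freedom). Means per array were compared by exact permutation tests. Normexp used pixel medians of the spots in place of means. The script was tested on simulated data that held a dye effect and no effect shared within a slide.

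Named genes were the 10 largest differences, the 6 highest and 6 lowest WT levels, the 5 protein-coding genes nearest the end, genes in called windows and the listed groups; others are described as neighbours of a window or island. The members and lists were chosen with earlier results of these data known. Same-numbered arrays, which share a slide and scan, deviated together (r = 0.34, 0.31 and 0.51; other pairings -0.44 to 0.10) and so pair the arrays; the reported fits and permutation tests are unpaired, and the paired fit is the replicate block among the alternatives. Alternatives are given in the closing section. Promoter sequences were not used here.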

Additional observations from a re-analysis of the deposited data

How the results depend on the processing

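The strain difference of the right end kept its sign under every alternative run, at 0.32 with normexp and 0.37 to 0.46 with 1 array left out (0.77 to 0.97 for the outermost 50 kb; 0.11 to 0.21 minus the other ends). The count of windows higher in rad3∆, 6 as reported, was 17 with the replicate block, 11 with mode centring, 0 with normexp, 0 with arrays scaled to equal spread, 2 with base composition removed, 46 without both arrays of slide 2, 0 and 19 with 0.5 kb and 2 kb windows, 0 without the deleted rad3 segment, and 0 to 6 with 1 array left out. Windows depleted in rad3∆, 1 as reported, numbered 6 with mode centring, 5 with normexp, 2 with probes well above background only, 3 with base composition removed, 4 without slide 2, 4 and 0 with 0.5 kb and 2 kb windows, 10 and 0 at sizes of 0.3 and 1, and 1 to 4 with 1 array left out. With 2 kb windows, 7 were enriched and 29 depleted in WT and 20 enriched in rad3∆. At a size of 0.3, 33 were enriched in WT and 77 in rad3∆, and at a size of 1, 0 and 6 were enriched and 10 depleted in WT. With 1 array left out, windows depleted in WT numbered 42 (without WT array 3) to 64. Of the 20 kb bins, 0 passed with normexp and 3 to 6 with 1 array left out, and 10 of 20 bins of 10 kb passed. Genes higher in rad3∆ numbered 21 without slide 2 and 0 with 1 array left out. The difference of SPNCRNA.4454 and SPNCRNA.4455 was -0.021 with base composition removed. That of SPNCRNA.4457 was -0.085 with normexp, -0.000651 without slide 2, and -0.089 to 0.177 with 1 array left out. That of spd1 ran from -0.045 to 0.266 and that of pgt1 from -0.161 to 0.049 with 1 array left out. The values 0.266 and -0.161 came without either array 3. In fits with a dye term this leaves slides 1 and 2 alone for the strain difference. The replicate block changed no other call on a count by more than 1.5 times. Without both arrays of slide 2, the dye term separates slide 1 from slide 3, so that this fit is paired by slide. Apart from the smaller sets of arrays and the narrower or wider windows, the cause of these changes was not tested. The number of arrays, 3 a strain, limits the precision.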

Other observations

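The outermost probe stands alone beyond the unprobed stretch and is the single member with a second copy in the genome. It read -1.46, -0.84 and -0.95 on the WT arrays and 0.40, 0.69 and 0.44 on the rad3∆ arrays, and the groups did not overlap. As a single probe it entered no window test.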
